A study of Harpegnathos saltator with 47 samples.

Results

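The 150 genes described here are those whose brain transcript level differed most from ant to ant within the same caste and sequencing batch in the ponerine ant Harpegnathos saltator. They were taken from 8218 gene rows with at least 1 RPKM (reads scaled by gene length and by library depth) in each of 33 ants, of 18429 gene rows in the deposited table. For each row the mean of the ants of the same caste and batch was subtracted from log2(RPKM + 1), and what was left is called the residual. The members were chosen by the median over the 33 ants of the absolute residual, as the 150 rows with the largest value. Their spread and the way they cluster are therefore described without a test. The caste means had been subtracted, so differences between castes were not used in the choice and could be tested.

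PolyA RNA from brains without optic lobes was sequenced with its strand retained. The 12 gamergates and 11 transition workers came from new nests, each set up with 30 newly emerged females of 1 to 3 days of age and 3 males, with no established reproductive. Gamergates are workers that had become reproductive in such nests, and transition workers are nestmates that had not. The 10 stable workers are labelled with a stable colony. All 33 ants are labelled day 120, and no separate age is given for the stable workers. No strain, genetic change or drug is named for any group. Which ants came from the same nest or colony is not labelled, so p-values measure only how these samples spread.

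Harpegnathos saltator is unusual among ants in that adult workers can change caste: when the reproductive is lost, workers duel with their antennae and some winners activate their ovaries and lay eggs. Nestmates that lose the contests keep working. Differences between individuals of 1 caste can come from many sources, among them physiological state, social rank, time of day and the tissue carried along in dissection, and genes under a shared source of variation move up and down together.

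The libraries held 3904943 to 11159675 reads in genes. Batch A held 2 gamergates and 2 transition workers, batch B 5 ants of each caste, and batch C 5 gamergates, 4 transition workers and 5 stable workers. Where a caste has 2 ants in a batch, as in batch A, their residuals are equal and opposite by construction. Transition worker 10 stood apart, with a median correlation of 0.932 to the other ants on the log2 scale, against 0.955 to 0.979 for the other 32. Reads in rRNA rows took 19.96% of all reads in transition worker 9, 7.82% in transition worker 10 and 7.04% in stable worker 7. The files pair no gene ID with a name, and none of the 18429 gene IDs matched the reference table, so genes are given by ID and no function, cell type or position is stated. In brain tissue not separated into cells, fewer cells of a type and less RNA per cell cannot be told apart.

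Across the 150 members the median absolute residual ran from 0.39 to 1.57 on the log2 scale, with a median of 0.45, beside a median of 0.16 over all 8218 rows. The last member, Hsal_03919, had 0.392, and the first row left out, Hsal_05983, had 0.390. Ranks 146 to 149 were held by Hsal_09390 and Hsal_02777 at 0.393 and by Hsal_10364 and Hsal_05179 at 0.392. On the other side were Hsal_08702 at 0.388 and Hsal_16426, Hsal_02921 and Hsal_05730 at 0.387, so the list ends within a continuous slope of values. The highest ant exceeded the lowest by a median of 17.0-fold in RPKM over the members, with a range of 4.94-fold to 1743-fold, and by a median of 3.52-fold over all rows. Members were about as abundant as other genes, with a median mean level of 20.7 RPKM against 24.2 RPKM over all rows. They were shorter, with a median length of 823 bases against 1804 bases, and the median member was covered by 155 reads per ant against 327. The standard deviation of the residuals was a median of 5.97 times the Poisson counting error in members and 3.64 times over all rows. Since the residuals chose the members, nothing is read from that difference. The standard deviation was under 2 times the counting error in 11 of the 150 members, beside 915 of the 8218 rows.

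The most variable gene was Hsal_11245, which ran from 1.11 RPKM through a median of 113 RPKM to 299.6 RPKM in gamergates. In transition workers it ran from 1.60 RPKM through 76.3 RPKM to 392 RPKM, and in stable workers from 4.44 RPKM through 74.7 RPKM to 403 RPKM. The 3 castes overlapped almost fully, and each held ants near both ends. Low ants were few: 8 ants of the 33 had under 18 RPKM, namely gamergates 5 and 7, transition workers 4, 5, 9 and 11 and stable workers 5 and 7. Hsal_12730, second in rank, ran from 20.3 to 546 RPKM in gamergates (median 241), from 20.3 to 579 RPKM in transition workers (median 132) and from 17.4 to 572 RPKM in stable workers (median 164). The 8 ants lowest in Hsal_12730 included 7 of those 8, and with Hsal_11245 it belongs to the sixth module below. The third in rank, Hsal_12731, had the widest range of all members: 1.03 to 412 RPKM in gamergates (median 23.0), 4.04 to 1791 RPKM in transition workers (median 97.8) and 11.3 to 843 RPKM in stable workers (median 63.7). Its ID number follows that of Hsal_12730, yet the residuals of the pair correlated at -0.16 over 33 ants, with -0.40 in gamergates, 0.34 in transition workers and -0.47 in stable workers, and Hsal_12731 joined no module.

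**Figure D1:**
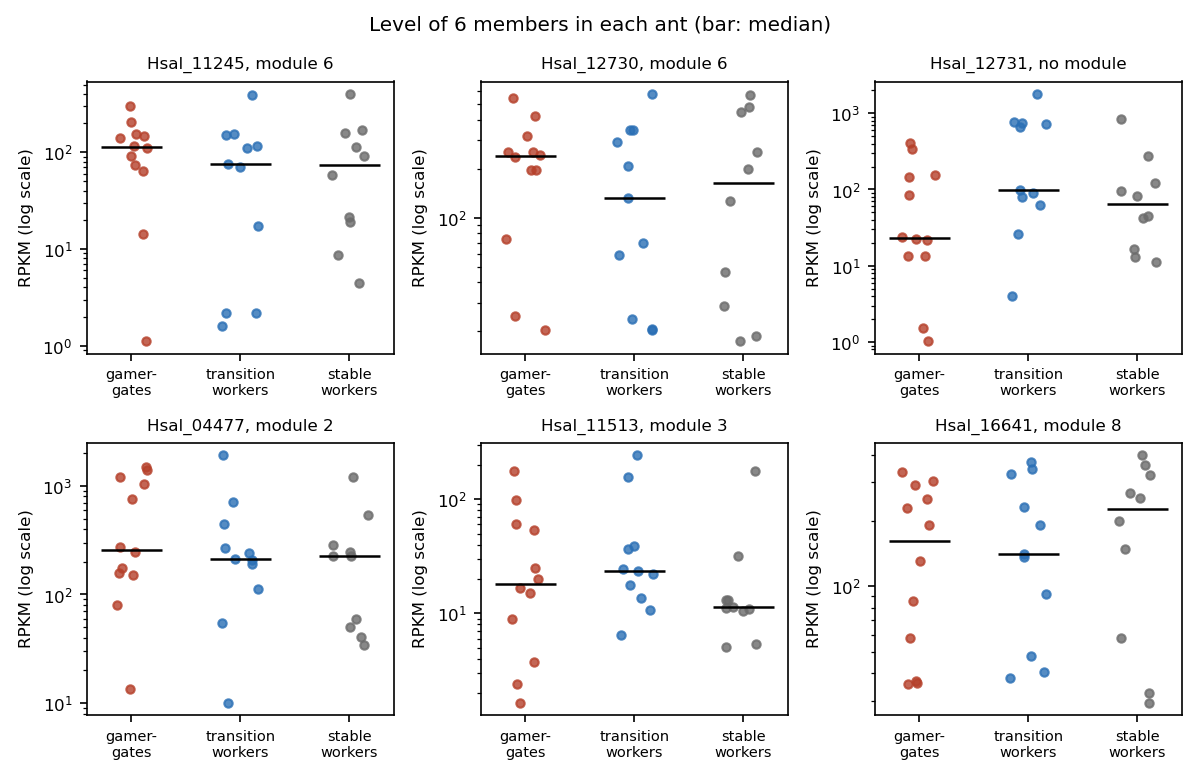
RPKM on a log scale in each ant for 6 members, by caste, where each point is 1 ant and the bar is the median. Every caste spans most of the range, as for Hsal_11245 with 1.11 to 299.6 RPKM in gamergates and 1.60 to 392 RPKM in transition workers.

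To find which members vary together, the residuals of every pair were correlated over the 33 ants and the members were joined by average linkage, with clusters separated at a mean r of 0.5. Clusters of at least 5 members are called modules. There were 8 modules with 103 of the 150 members, 12 smaller clusters of 2 to 4 members with 32 members, and 15 members that joined none. A module score is the mean residual of its members in an ant, on the log2 scale. Taken as a whole the 150 members were not more correlated with each other than other genes were. Of the 11175 member pairs 10.01% had r of at least 0.5 and 1.405% had r of -0.5 or less, with a median of 0.03. Over all pairs of the 8218 rows the shares were 18.2% and 9.62%. Leaving out transition worker 10 gave 9.84% and 0.957% for members and 15.0% and 8.01% for all rows.

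Within modules the co-variation was seen in each caste taken alone. A total of 614 member pairs (5.49%) had r of at least 0.5 in every caste taken separately. They made up 576 of the 953 pairs within a module (60.4%) and 38 of the 10222 other pairs (0.372%). With r of at least 0.8 in each caste there were 162 pairs, and with r of at least 0.9 there were 39. These castes took part in the clustering, so the counts describe it.

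**Figure D2:**
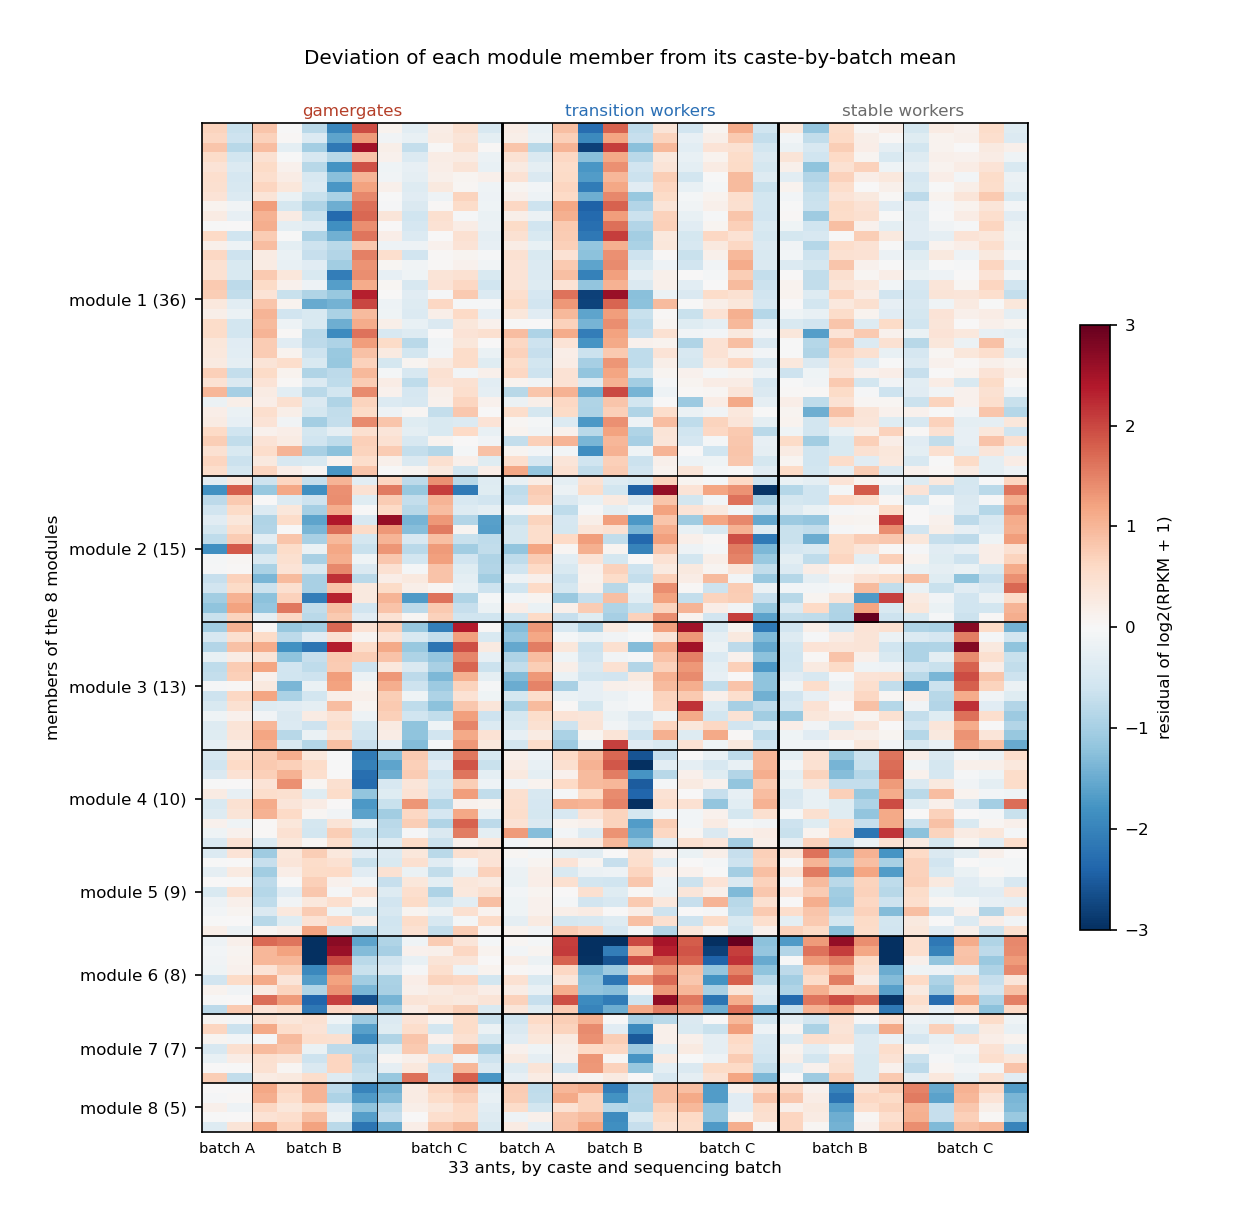
Residual of log2(RPKM + 1) for each of the 103 module members (rows, by module, with member counts in brackets) in each of 33 ants (columns, by caste and batch), with colours limited to -3 and 3. Modules show as blocks whose rows change sign in the same ants, most plainly in module 6, where scores ran from -2.55 to 1.89.

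The largest module, module 1, had 36 members led by Hsal_10921, Hsal_12426, Hsal_15943 and Hsal_07277, the 4 with the highest mean r to the rest. Its mean pairwise r was 0.77 over 33 ants, 0.79 in gamergates, 0.84 in transition workers and 0.57 in stable workers. Hsal_10921 ran from 2.51 to 61.1 RPKM in gamergates (median 27.0), from 5.42 to 105 RPKM in transition workers (median 31.8) and from 9.31 to 58.7 RPKM in stable workers (median 29.3). Hsal_15943 had a wider range, with 1.60 to 139 RPKM in gamergates (median 51.5), 3.78 to 150.4 RPKM in transition workers (median 66.1) and 13.6 to 136 RPKM in stable workers (median 55.4). The castes overlapped throughout, and for each of the 4 leaders the lowest ants were gamergate 6, transition worker 4 and stable worker 2. Module scores ran from -1.60 in transition worker 4 to 1.31 in transition worker 5, and among gamergates from -1.23 in gamergate 6 to 1.24 in gamergate 7. In stable workers the range was narrower, from -0.69 to 0.46.

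Module 1 also followed a library measure. Its score correlated at 0.58 with the number of genes at 1 RPKM or more, at 0.30 without the 2 ants farthest out in that number, at 0.68 in batch B and at -0.09 in batch C. With the rRNA share r was 0.21 over 33 ants, with 0.05 in batch B and 0.71 in batch C, and with depth it was -0.29, with -0.19 in batch B and -0.68 in batch C. Of the 24 members with r of at least 0.5 to the number of detected genes, 20 were in module 1. Those 24 are 16% of the members, beside 1121 of the 8218 rows (13.6%). Outside the list, 1197 of the other 8068 rows had r of at least 0.7 with the module 1 score, so its variation was shared by many genes that vary less. Mean pairwise r was 0.85 in batch B and 0.56 in batch C. The part of detected gene number, rRNA share, depth and batch in this module was not tested.

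Module 2 had 15 members led by Hsal_02777, Hsal_04477, Hsal_01060 and Hsal_02478. Its mean pairwise r was 0.81 in gamergates, 0.58 in transition workers and 0.51 in stable workers, and the last fell to 0.29 without stable worker 10. Hsal_04477 ran from 13.4 to 1481 RPKM in gamergates (median 259), from 10.1 to 1911 RPKM in transition workers (median 214) and from 34.2 to 1210.3 RPKM in stable workers (median 226). Among gamergates 5 had scores of 0.59 to 1.37 and 7 had scores of -1.02 to -0.20. The next ID, Hsal_04478, was also a member, with 1.21 to 103 RPKM in gamergates (median 6.84), and its residuals correlated with those of Hsal_04477 at 0.70. Few other rows shared this pattern, 10 of 8068 with r of at least 0.7. The module 2 score correlated with depth at -0.18, with -0.11 in batch B and -0.31 in batch C. With the number of detected genes r was -0.21, with -0.14 in batch B and -0.40 in batch C, and with the rRNA share it was 0.10. The part of these measures in module 2 was not tested.

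Module 3 had 13 members led by Hsal_04238, Hsal_01356, Hsal_11513 and Hsal_08081, and in each caste a single ant stood highest for all 4: gamergate 11, transition worker 8 and stable worker 8. Hsal_11513 ran from 1.65 to 175 RPKM in gamergates (median 18.2), from 6.47 to 242 RPKM in transition workers (median 23.7) and from 5.12 to 177 RPKM in stable workers (median 11.3). Hsal_04238 ran from 1.86 to 121 RPKM in gamergates (median 8.61), from 1.43 to 151 RPKM in transition workers (median 9.60) and from 1.92 to 100.2 RPKM in stable workers (median 4.88). For these 2 genes the highest ant of each caste lay about an order of magnitude or more above the caste median. By module score 8 ants lay above 0.5 and 9 below -0.5. The mean pairwise r was 0.76 in gamergates, 0.63 in transition workers and 0.78 in stable workers, where it was 0.47 without stable worker 8. Only 2 of 8068 other rows had r of at least 0.7 with its score. The module 3 score correlated with depth at 0.08 over 33 ants, with -0.38 in batch B and 0.31 in batch C. With the rRNA share r was 0.11, and with the number of detected genes it was -0.08. The part of these measures in module 3 was not tested.

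Module 4 had 10 members led by Hsal_16993, Hsal_16992, Hsal_11059 and Hsal_03586. The level of Hsal_16992 ran from 7.16 to 199 RPKM in gamergates (median 42.5), from 12.8 to 418 RPKM in transition workers (median 49.5) and from 54.5 to 499 RPKM in stable workers (median 92.7). Hsal_16993, with the neighbouring ID number, followed it with r of 0.97 over all ants and at least 0.96 in each caste. Hsal_11059 followed Hsal_16993 with r of 0.98. Scores ran from -2.13 in transition worker 6 to 1.42 in stable worker 5. Mean pairwise r was 0.73 in gamergates, 0.76 in transition workers and 0.58 in stable workers. Single ants weighed on it: without transition worker 6 it was 0.51 in transition workers, and without stable worker 5 it was 0.27 in stable workers. The module 4 score correlated with the number of detected genes at -0.33 over 33 ants, with -0.47 in batch B and 0.28 in batch C. With the rRNA share r was 0.06, with 0.44 in batch B and -0.09 in batch C, and with depth it was 0.07. The part of these measures in module 4 was not tested.

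Module 5, with 9 members led by Hsal_06280, Hsal_02381, Hsal_02174 and Hsal_10384, varied most closely in stable workers, with a mean r of 0.85 against 0.64 in gamergates and 0.53 in transition workers. In transition workers it was 0.36 without transition worker 10. Hsal_02174 ran from 12.0 to 121 RPKM in stable workers (median 58.4), from 36.7 to 185 RPKM in gamergates (median 94.2) and from 29.3 to 156 RPKM in transition workers (median 65.9). Stable worker 2 was the highest of its caste for all 4 leaders, and stable worker 5 the lowest for 3 of them. The module 5 score correlated at -0.48 with that of module 1 over 33 ants. It had the widest opposite group, since 1023 of 8068 other rows had r of at least 0.7 with it and 538 had r of -0.7 or less. Its score also correlated with sequencing depth at 0.43, with 0.41 in batch B and 0.49 in batch C. With the number of detected genes r was 0.27, with 0.21 in batch B and 0.55 in batch C. With the rRNA share it was -0.23, with -0.25 in batch B and -0.36 in batch C. The part of these measures in module 5 was not tested.

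Module 6 held 4 of the 6 most variable genes and was among the 2 tightest modules. Its 8 members were Hsal_11245, Hsal_01888, Hsal_12315, Hsal_03587, Hsal_04843, Hsal_00439, Hsal_12730 and Hsal_09407. The mean pairwise r was 0.89 over 33 ants, 0.85 in gamergates, 0.92 in transition workers and 0.90 in stable workers, and it stayed at 0.77 or more in each caste when any 1 ant was left out. Hsal_12315, the most abundant of the leaders, ran from 66.7 to 2421 RPKM in gamergates (median 959), from 69.9 to 2365 RPKM in transition workers (median 1339.9) and from 110.0 to 3310.4 RPKM in stable workers (median 813). Hsal_01888 ran from 2.84 to 264 RPKM in gamergates (median 95.7), from 1.92 to 171 RPKM in transition workers (median 90.7) and from 3.38 to 286 RPKM in stable workers (median 52.5). Ants at the low end were gamergate 5 with a score of -2.52, transition worker 4 with -2.14 and stable worker 5 with -2.55. High ants were gamergate 6 with 1.75, transition worker 7 with 1.89 and stable worker 3 with 1.59. In all, 13 ants had a score above 0.5 and 11 a score below -0.5. Its score correlated with depth at -0.12 over 33 ants, but at -0.33 in batch B and 0.27 in batch C. With the rRNA share r was -0.15, with 0.16 in batch B and -0.38 in batch C, and with the number of detected genes it was 0.18, with 0.42 in batch B and -0.76 in batch C. The part of these measures in module 6 was not tested. Of the 8068 other rows 8 had r of at least 0.7 with its score.

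Module 7 was the loosest, with 7 members and a mean r of 0.60 over 33 ants, 0.59 in gamergates, 0.66 in transition workers and 0.43 in stable workers. Hsal_13234, one of its 4 leaders beside Hsal_03799, Hsal_12220 and Hsal_08141, ran from 1.02 to 17.6 RPKM in gamergates (median 7.86), from 2.46 to 50.2 RPKM in transition workers (median 16.8) and from 8.86 to 28.9 RPKM in stable workers (median 15.2). Transition worker 6 was the lowest of its caste for all 4 leaders. Scores of modules 4 and 7 correlated at 0.65 over 33 ants, with a Spearman rho of 0.50, the highest value between any 2 modules. The module 7 score correlated at -0.49 with the number of genes detected and at -0.24 without the 2 farthest ants, with -0.63 in batch B and -0.10 in batch C. With the rRNA share r was 0.36 over 33 ants and 0.40 without the 2 ants farthest out in that share. It was 0.44 in batch B and 0.44 in batch C. With depth r was -0.33, with -0.28 in batch B and -0.45 in batch C. The part of these measures in module 7 was not tested.

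Module 8 was the tightest, with 5 members: Hsal_16640, Hsal_16641 and Hsal_16642, which have consecutive ID numbers, and Hsal_13675 and Hsal_15645. The mean pairwise r was 0.93 over 33 ants, 0.97 in gamergates, 0.89 in transition workers and 0.96 in stable workers, and 0.84 or more in each caste when any 1 ant was left out. Hsal_16641 ran from 35.6 to 333 RPKM in gamergates (median 161), from 38.1 to 370.1 RPKM in transition workers (median 141) and from 29.3 to 398 RPKM in stable workers (median 227). Scores were uneven: 14 ants lay above 0.5 and 9 below -0.5. The module 8 score correlated with the rRNA share at -0.14 over 33 ants, with 0.51 in batch B and -0.39 in batch C. With the number of detected genes r was -0.27 and with depth 0.01. The part of these measures in module 8 was not tested. Hsal_16640 and Hsal_16641 had r of 0.98 or more in each caste. Reads shared between near-identical copies could not be checked without a genome, so correlations between neighbouring IDs are uncertain. Over the list, 10 pairs had consecutive ID numbers and a median r of 0.27, beside 0.21 for the 5551 such pairs among all rows. One pair moved in opposite directions with r of -0.7 or less in every caste: Hsal_15645 of module 8 and Hsal_07620 of module 1, with -0.80 in gamergates, -0.72 in transition workers and -0.75 in stable workers.

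**Figure D3:**
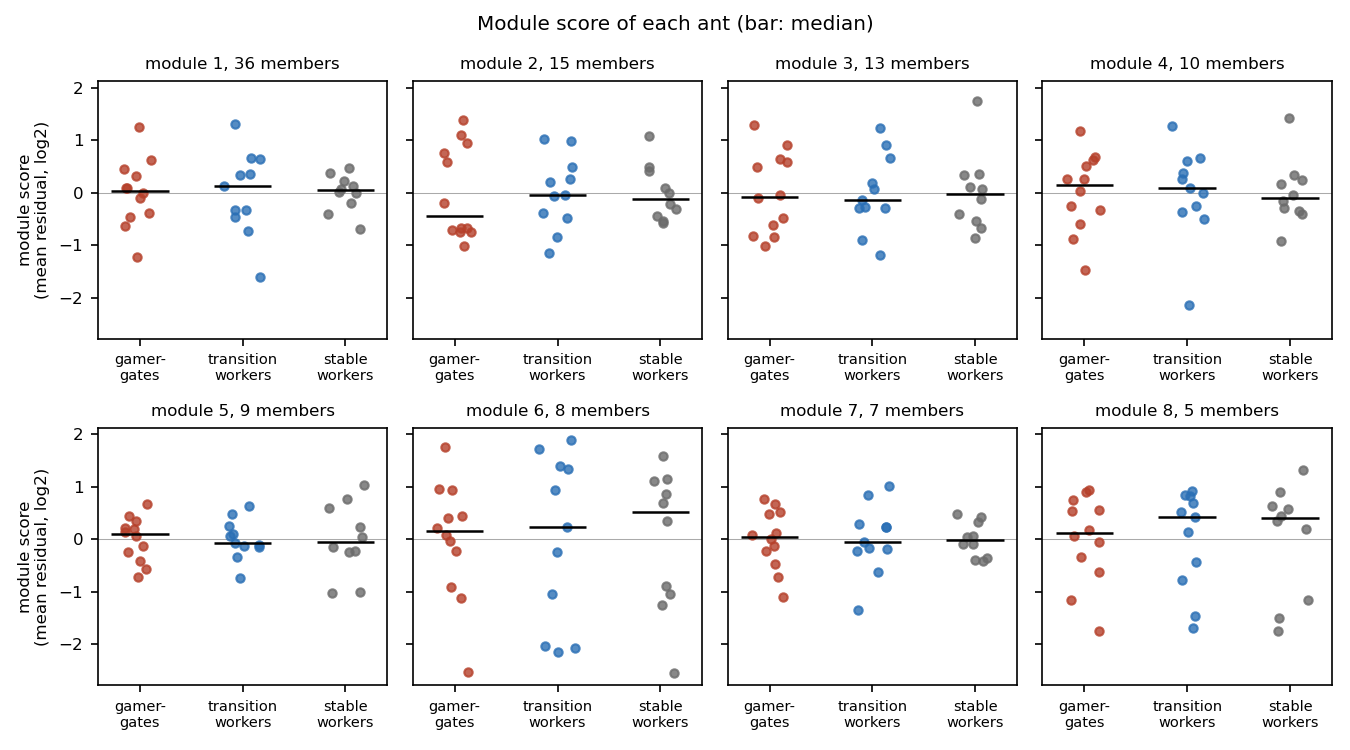
Module score of each ant (mean residual of its members, log2 scale) for the 8 modules, by caste, where each point is 1 ant and the bar is the median. Scores of module 6 spread from -2.55 to 1.89 and those of module 5 from -1.02 to 1.02. Residuals are centred on 0 within each caste and batch, so ants of each caste lie above and below 0 by construction.

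**Figure D4:**
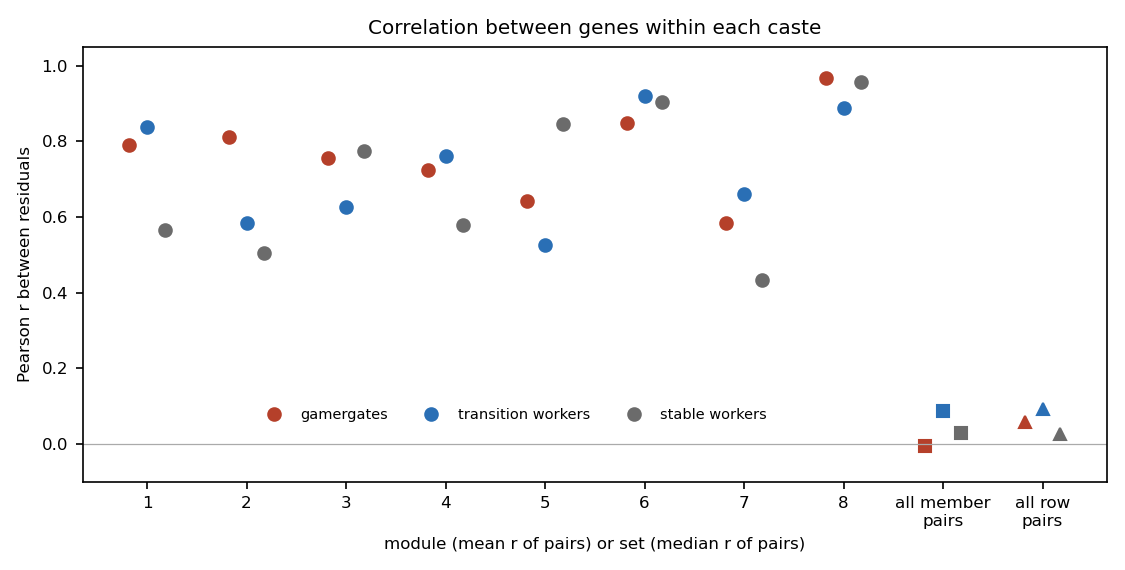
Mean Pearson r between the members of each module in each caste (circles), beside the median r of all member pairs (squares) and of all pairs of the 8218 rows (triangles). Modules 6 and 8 lie between 0.85 and 0.97 in every caste, while modules 1, 2, 4 and 7 are lowest in stable workers.

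Among the smaller clusters, a set of 4 followed the rRNA reads. Hsal_12597, Hsal_12595, Hsal_17153 and Hsal_17155 had a mean pairwise r of 0.94 over 33 ants, with 0.69 in gamergates, 0.96 in transition workers and 0.97 in stable workers. Hsal_12597 ran from 491 to 40842 RPKM in transition workers (median 1476), from 694 to 4556 RPKM in gamergates (median 1786) and from 902 to 13561 RPKM in stable workers (median 1970.1). The highest ants were transition worker 9 with 40842 RPKM, stable worker 7 with 13561 RPKM and transition worker 10 with 12707 RPKM, which are the 3 libraries with the largest share of rRNA reads. Residuals of Hsal_12597 correlated at 0.99 with the residuals of the log2 rRNA share over 33 ants, at 0.97 in batch B, at 1.00 in batch C and at 0.99 without the 2 ants farthest out in that share. Hsal_17153 had the same 0.99 over 33 ants, Hsal_12595 had 0.97 and Hsal_17155 had 0.91, the last with 0.39 in batch B. With these 4 counted, 6 of the 150 members (4%) reached r of 0.5 with the rRNA share, beside 41 of all 8218 rows (0.499%). The 2 members outside this set were Hsal_12575 with 0.56 and Hsal_16433 with 0.54. The variation of these 4 rows is reported as moving with library rRNA content, and how the 2 are linked was not tested. The next tightest small cluster was the pair of Hsal_03016 and Hsal_01922, with r of 0.94 in gamergates, 0.81 in transition workers and 0.80 in stable workers.

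Some ants carried more of the variation than others. The number of members more than 1 log2 unit from the mean of the ant's caste and batch ran from 7 in gamergate 12 to 59 in transition worker 5. Besides transition worker 5, the highest were transition worker 4 with 57, gamergate 7 and transition worker 10 with 53 each, and gamergate 6 with 46. The mean absolute residual over all 8218 rows also differed between ants. It was 0.593 in transition worker 10, 0.365 in transition worker 5, 0.329 in transition worker 4 and 0.304 in gamergates 6 and 7. In gamergate 12 it was 0.210, and in stable worker 3, with 25 members beyond 1 log2 unit, it was 0.361. Spread within castes was compared as a description in batches B and C, where the castes have 9 or 10 ants. The mean absolute deviation of a member had a median of 0.74 in transition workers, 0.62 in gamergates and 0.54 in stable workers on the log2 scale. It was widest in transition workers for 91 of 150 members and for 73.6% of all 8218 rows. Without transition worker 10 those figures were 80 of 150 and 44.1%. Transition workers were the widest caste for 28 of 36 members of module 1, or 30 of 36 without transition worker 10, and for 7 of 8 members of module 6 either way. Gamergates were the widest for 11 of 15 members of module 2 either way and for 10 of 13 of module 3, or 9 of 13 without that ant, beside 11.7% and 19.8% of all rows. The members were chosen on these residuals and those of a module share their ants, so the counts are descriptions.

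Caste differences were tested with limma over the 11234 rows whose mean reached 0.5 RPKM, with batch as a term and Benjamini-Hochberg adjustment. The 150 members were then read out. For these tests all rows means those 11234, under a looser filter than the 8218 rows above and not limited to gene rows. The comparison of gamergates with transition workers asks which genes differ between reproductive and non-reproductive ants of such nests. It called 0.107% of all rows at an adjusted p under 0.05 (0.0534% lower and 0.0534% higher in gamergates) and 4 of the 150 members (2.67%), all 4 lower in gamergates. At an unadjusted p under 0.05 there were 26 members (17.3%), all lower in gamergates, beside 9.39% of all rows, of which 5.05% of rows were lower and 4.34% higher. When limma was run on rows with at least 1 RPKM in each ant, 833 of 8235 rows and 27 members had an unadjusted p under 0.05. The median difference of gamergates minus transition workers was -0.22 over members and -0.02 over all rows on the log2(RPKM + 1) scale, and 39 of 150 members were above 0. Most members showed no caste difference that passed the adjustment, and a p that misses it does not show that the castes are alike.

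Gamergates shared their samples between this comparison and that with stable workers, so the values of both are given side by side. Against stable workers 0.231% of all rows were called (0.16% lower and 0.0712% higher in gamergates) and 4 of 150 members (2.67%), all lower in gamergates and the same 4 as before. At an unadjusted p under 0.05 there were 21 members, 17 lower and 4 higher, beside 7.56% of all rows, of which 5.18% of rows were lower and 2.38% higher. The median difference was -0.07 over members. Transition workers against stable workers gave 0.0089% of all rows and 0 of 150 members by limma, with 7 members (4.67%) at an unadjusted p under 0.05 beside 2.96% of all rows. In that comparison 6 of the 7 were higher in transition workers and 1 lower, beside 0.926% and 2.04% of all rows. A limma voom test on read counts recovered from the RPKM values also called 0 members.

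Hsal_05445 of module 7 ran from 14.4 RPKM through a median of 54.7 RPKM to 248 RPKM in gamergates, from 114 RPKM through 323 RPKM to 656 RPKM in transition workers and from 164 RPKM through 302 RPKM to 596 RPKM in stable workers. In 9 of 12 gamergates it lay below the lowest transition worker and in 10 of 12 below the lowest stable worker, so the groups overlapped in few ants. The difference was -2.29 (SE 0.36) against transition workers and -2.22 against stable workers, with limma adjusted p of 0.00355 and 0.00474. Hsal_09095.2 of module 4 ran from 3.93 RPKM through 6.98 RPKM to 47.0 RPKM in gamergates, from 10.5 RPKM through 38.3 RPKM to 72.1 RPKM in transition workers and from 31.9 RPKM through 51.5 RPKM to 145 RPKM in stable workers. Here 10 and 11 of 12 gamergates lay below the lowest transition and stable worker. The difference was -2.01 (SE 0.33) with a limma adjusted p of 0.00355 against transition workers and -2.61 with 0.000112 against stable workers. Gamergates 9 and 11 were the highest of their caste for both genes.

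For these 2 genes neither call was lost when any 1 of the 33 ants was left out, but other settings ended them. Library names begin with b in 11 of 12 gamergates but in 3 of 11 and 0 of 10 ants of the transition and stable worker groups, and what that letter means is not labelled. With the prefix as a term the difference from transition workers was -2.47 for Hsal_05445 and -2.03 for Hsal_09095.2, and the limma adjusted p were 0.0638 and 0.126. Against stable workers the same fit gave -2.38 and -2.53, with limma adjusted p of 0.847 and 0.550, so with this term neither gene was called in either comparison. Within batch B the differences from transition workers were -1.88 and -2.25, and within batch C -2.02 and -1.19. The other 2 called members, 1 in module 7 and 1 in no module, were less secure: their calls against transition workers were lost when 11 and 13 of the 33 ants were left out one at a time, and those against stable workers when 26 and 22 were. The number of members called against transition workers was 2 without gamergate 1, 2, 6, 7, 10 or 12 or transition worker 1, 2, 3 or 5, and it was 6 without gamergate 11, transition worker 6 or transition worker 10. For the same comparison the authors' deposited table has 0.567% of 11983 rows at an adjusted p under 0.05 and 7 of 150 members (4.67%), all lower in gamergates. The authors' deposited table gives Hsal_05445 with a log2 fold change of -1.81 and Hsal_09095.2 with -1.64 for gamergates over transition workers.

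By module, the 26 members with lower levels in gamergates against transition workers and an unadjusted p under 0.05 were 7 of 10 in module 4, 4 of 7 in module 7, 2 of 36 in module 1, 1 of 15 in module 2 and 12 of the 47 members in no module. Against stable workers the 17 lower members were 8 in module 4, 3 in module 7, 1 in module 1 and 5 in no module. All 10 members of module 4 were below 0 against both groups of workers, with a median difference of -0.96 against transition workers and -1.27 against stable workers, and all 7 members of module 7 were below 0, with medians of -0.71 and -0.77. Members of a module move together, so they are not separate observations. Quantile normalization and median-ratio scaling left all 17 below 0 against both groups. Batches differed: the module 4 median against transition workers was -1.38 in batch B, with 10 of 10 below 0, and -0.21 in batch C, with 6 of 10 below 0. Against stable workers it was -1.77 and -0.34, with 10 of 10 below 0 in both batches. In module 7 the medians against transition workers were -0.69 in batch B, with 5 of 7 below 0, and -0.56 in batch C, with 6 of 7 below 0. Its medians against stable workers were -1.04 in batch B, with 7 of 7 below 0, and -0.42 in batch C, with 5 of 7 below 0. Module 1 had 35 of 36 members below 0 against transition workers, with a median of -0.31, and the median was -0.60 in batch B and -0.03 in batch C. The 8 members of module 6 lay above 0 against transition workers, from 0.02 to 0.95, and none had an unadjusted p under 0.05. Against stable workers the module 6 median was -0.45 in batch B and 0.84 in batch C, opposite in sign. The same held for module 8, with -0.61 in batch B, where 5 of 5 members were below 0, and 0.75 in batch C, where 0 of 5 were. It also held for module 5, with 0.70 and -0.20, and for module 1, with -0.31 and 0.07. Medians against transition workers changed sign between batches B and C in module 2 (-0.34 and 0.63) and module 3 (-0.04 and 0.08). They did so too in module 5 (0.33 and -0.19) and module 8 (-0.33 and 0.38).

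**Figure D5:**
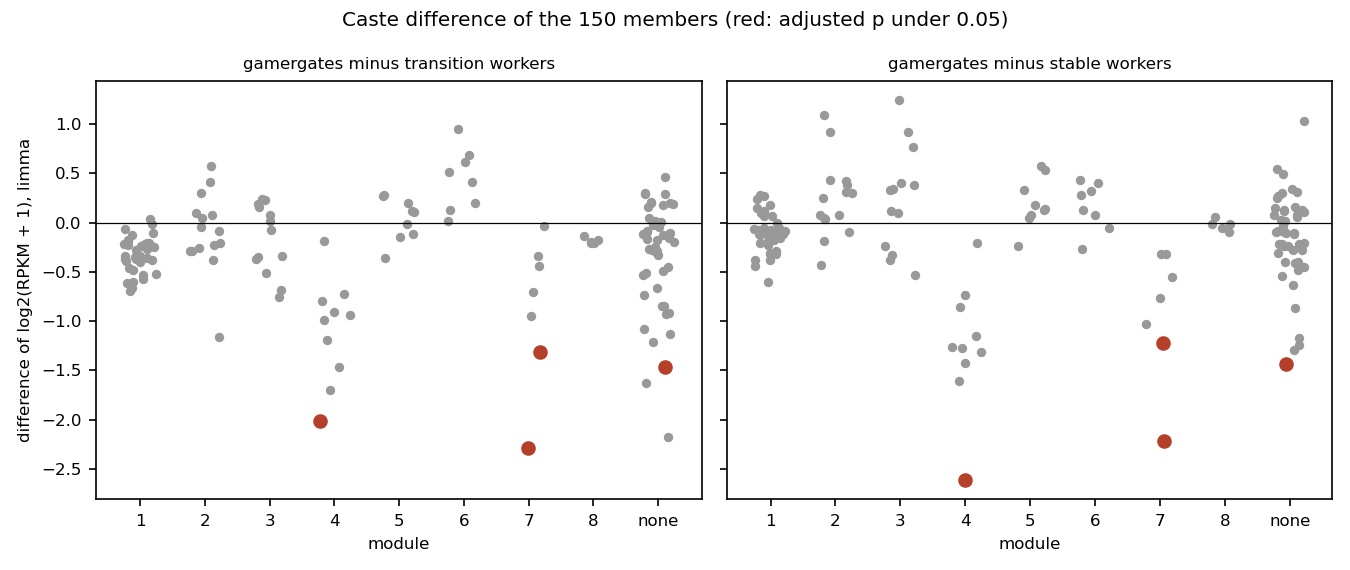
Difference of log2(RPKM + 1) between gamergates and transition workers (left) and stable workers (right) for each of the 150 members by module, from limma, with members at an adjusted p under 0.05 in red. All 10 members of module 4 and all 7 of module 7 lie below 0 in both panels, and the lowest red point is -2.61.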

How the data were processed

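The authors deposited RPKM values for 33 ants in 19198 rows, of which 18429 are genes; the labels list 47 sequencing runs, 14 ants having 2. RNA was extracted with TRIzol, and polyA libraries were made with random hexamers and dUTP, per the labels' protocols. Alignment with STAR 2.5.0b is credited to the submitters' processing notes; the genome build and the read counting, not given in the sources used here, were left unassumed. The authors' deposited table, made by the authors with DESeq2 per the submitters' processing notes, lists for each gene a mean signal, a log2 fold change, its p-value and the adjusted value. Its log2 sign was turned so that positive means higher in gamergates.

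The deposited RPKM values were whole multiples of 1 read: 404997 values in 15320 rows came out 100% whole within 0.01 reads. Castes follow the labels, and batches the run dates in the library names. Further per-sample columns numbered 0. The members, lists and tests were chosen with earlier results of these data known.

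Level tests used limma 3.58.1 (lmFit, eBayes with trend) in R 4.3.3 on log2(RPKM + 1), two-sided, with batch as a term and all 3 castes in 1 model. The pseudocount of 1 understates folds of low genes. The test was also run on simulated normal values, drawn for each gene on its own. These held no co-varying genes, no outlying ant and no link of library prefix with caste, so the run does not check the test against those features. A planned test of spread between castes was dropped because, on simulated data, 9.04% to 11.1% of unchanged genes had an unadjusted p under 0.05. Genes named are the 10 with the largest residuals, the 4 with the highest mean r in each module, the 5 on each side of the threshold, and called members, of which at most 2 a comparison are named; others were chosen after their values were seen. Marker lists for cell types could not be applied, since 0 gene IDs matched a name. Residuals, correlations and clusters were computed with Python 3.11.15, numpy 2.4.6, pandas 2.3.3 and scipy 1.17.1. Alternatives covered pseudocounts, filters, scaling, batch and prefix terms, clustering and leaving out each ant.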

Additional observations from a re-analysis of the deposited data

Results flagged for a closer look

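In groups of 4 to 10 samples a value was singled out when the gap between the most extreme ant and its neighbour, divided by the whole range, passed Dixon's critical ratio, which chance does in about 1 of 20 groups. Only the 10 stable workers form such a group, with a critical ratio of 0.466. Of 50 values examined there, 15 passed, and all 15 had a single high ant. That rate does not apply to these values: the genes were chosen for large residuals in these same ants, their RPKM values are skewed, and values of 1 module share their ants. The 15 ratios are descriptions and not separate events.

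Stable worker 8 stood above the rest in module 3, with ratios of 0.845 for Hsal_11513 (177 RPKM against 31.8 RPKM in the next ant), 0.797 for Hsal_04238 (100.2 against 21.9 RPKM), 0.769 for Hsal_01356 and 0.538 for Hsal_08081. The module 3 score gave 0.533, with 1.74 against 0.35. Stable worker 5 stood above the rest in module 4, with 0.635 for Hsal_16993, 0.643 for Hsal_16992, 0.576 for Hsal_11059 and 0.581 for Hsal_03586, and in module 7 with 0.494 for Hsal_12220. Stable worker 10 did so in module 2, with 0.574 for Hsal_04477 (1210.3 against 536 RPKM), 0.556 for Hsal_01060 and 0.643 for Hsal_02478. Stable worker 3 was high for Hsal_11245 with 0.583 (403 against 171 RPKM), and stable worker 1 for Hsal_12731 with 0.679 (843 against 278 RPKM).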

How the results depend on the processing

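Whether same-numbered ants belong together is not labelled, and correlations of residuals cannot settle it, since nests are not labelled either. Same-numbered ants of gamergates and transition workers correlated at -0.401 to 0.309, with 4 of 11 pairs over 0.1. Those of transition and stable workers correlated at -0.372 to 0.323, with 3 of 10 over 0.1. Those of gamergates and stable workers correlated at -0.236 to 0.469, with 6 of 10 over 0.1. In these comparisons 1, 0 and 3 ants correlated best with their own number. Against transition workers, where 12 rows and 4 members were called, the replicate block gave 2 and 2, the prefix term 0 and 0, no batch term 3 and 2, batch B alone, batch C alone or both without batch A 0 and 0, and limma voom on recovered reads, added after the data were seen, 3 and 2. Leaving out 1 ant gave 2 to 37 rows and 2 to 6 members. Against stable workers, where 26 rows and 4 members were called, values were 13 and 2 with no filter, 11 and 2 with median-ratio scaling, 2 members with quantile normalization, 1 and 1 with the replicate block, 0 and 0 with the prefix term, 14 rows with no batch term, 3 and 2 in batch B, 0 and 0 in batch C, 4 and 2 without batch A and 4 and 2 with voom. Leaving out 1 ant gave 4 to 47 rows and 2 to 5 members. Under the replicate block Hsal_05445 had limma adjusted p of 0.0403 against transition workers and 0.329 against stable workers, and Hsal_09095.2 had 0.0403 and 0.0265. Between transition and stable workers the 1 row called became 0 with the replicate block, the prefix term, batch B or batch C alone, and 1 to 2 without 1 ant, with 0 members throughout. Calls higher and lower in gamergates were 6 and 6 against transition workers, but 12 and 5 with quantile normalization and 9 and 7 with median-ratio scaling; against stable workers they were 8 and 18, 11 and 12, and 5 and 6. Scaling moved the median of all rows by under 0.1. The cause of these changes was not tested.

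The list of members depended most on its filter. Asking for a mean of 1 RPKM in place of 1 RPKM in each ant kept 30 of the 150 members, standard deviations kept 91 and a mean of at least 100 reads kept 91. Leaving out 1 ant kept 124 to 141, fewest without transition worker 10. There were 7 to 10 modules without 1 ant. With module membership held fixed, the mean r within modules was 0.724 to 0.756 without 1 ant, against 0.748. Modules clustered in batch B had a mean r of 0.795 there and 0.542 in batch C. Those clustered in batch C had 0.690 there and 0.417 in batch B. Over all member pairs the mean r was 0.080 in batch C and 0.071 in batch B. These values are descriptions only, since members were chosen on both batches. The tests planned with edgeR and DESeq2 were not run, since the deposited unit is RPKM, and other settings of the test of spread were dropped with it.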
